A study of Rattus norvegicus with 6 samples.

Results

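The genes described here are 34 chaperones, folding enzymes, stress sensors and heat shock proteins of the rat, chosen by symbol from a table of 30498 genes. All 34 were in the table and all passed the low-count filter. They fall into 15 folding proteins of the endoplasmic reticulum (ER), 7 sensors of the unfolded protein response or parts of ER-associated degradation (ERAD), 8 cytosolic heat shock proteins, 3 mitochondrial heat shock proteins and the heat shock transcription factor Hsf1. RNA was sequenced from wild-type (WT) rat mesenchymal stem cells of 2 origins. The 3 rcMSC libraries came from cranial bone marrow and the 3 rbMSC libraries from the marrow of femurs and tibias. The labels name no treatment and give no age, sex, passage or pooling of animals. Whether the replicates are separate cultures or animals is not in the labels, so the p-values refer to the variation among these 6 libraries, and that variation may be technical.

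Secreted and membrane proteins enter the ER unfolded and are folded there by HSP70- and HSP90-type chaperones, sugar-binding chaperones and enzymes that make disulfide bonds. When unfolded protein builds up, the sensors ATF6, IRE1 (gene Ern1) and PERK switch on genes for more chaperones and for ERAD, which returns misfolded protein to the cytosol for degradation. The cytosol and mitochondria have their own HSP70, HSP90, HSP40 and HSP60 machines, and many of those genes answer to HSF1. Mesenchymal stem cells secrete large amounts of collagen, so their ER carries a heavy folding load.

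Total counts lay between 21340290 and 26928079 per library. Replicates of rbMSC, and rcMSC 1 and 2, differed by 2.69 to 3.16 times counting noise (chi-square per degree of freedom), whereas rcMSC 3 differed from rcMSC 1 and 2 by 42.8 and 42.0 times. Library rcMSC 3 therefore stands apart, and calls that change without it are given beside each gene. In the fit without it, rcMSC rests on 2 libraries that differed by 3.16 times counting noise. The p-values of that fit therefore set changes against a very small spread. By edgeR, 60.1% of all genes passed there, against 45.8% with all libraries. Of all genes tested, 22.6% were higher and 23.2% lower in rcMSC, which is the background for the marker counts that follow. Stromal markers such as Col1a1, Thy1 and Vim were abundant in both groups, and of 12 stromal markers tested 4 were higher and 7 lower in rcMSC. Thy1 had 1097 CPM on average in rbMSC and 505 in rcMSC. Markers of lymphocytes, neutrophils and red cells (12 in the table) were all under the filter, at a summed 0.0468 to 0.346 CPM per library. Macrophage markers were present in both groups, with 15 of 20 tested lower in rcMSC and 0 higher. Their summed level over 21 genes was 1461 to 1466 CPM (counts scaled to a common library size, in the usual CPM unit) in rbMSC and 843 to 888 in rcMSC, with the leukocyte marker Ptprc at 136 ± 4.88 CPM in rbMSC and 45.6 ± 9.49 in rcMSC and Cd163 at or near 0 in both. Their part in the results was not tested. In such bulk samples, fewer cells of a type and less RNA per cell cannot be told apart.

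Upstream sequences of the members were read first, since the 2 stress programmes are known for different promoter motifs. RefSeq windows of 300 bases (build GRCr8, from 250 bases before to 50 after each gene start) matched 28 of the 34 symbols. The ER stress response element ERSE, searched on both strands as CCAAT and CCACG with 9 bases of any kind between them, is bound by ATF6 together with the CCAAT-binding factor NF-Y. It was present in 7 of 18 ER members with a window and in 0 of 10 heat shock members, against 22 of all 33469 windows (0.0657%). These windows include those of the members, and among tested genes with a window the share was 0.163%. The shorter ERSE-II, ATTGG and CCACG with 1 base between them, was found in 3 ER members (Hyou1, Dnajb11 and Herpud1), 0 heat shock members and 0.0508% of all windows. That of Dnajb11 reached past the gene start. The lines below show the ERSE matches of chaperones and of Xbp1, and the ERSE-II of Herpud1, with 15 bases on each side. Capitals mark the match, each line reads 5′ to 3′ on the gene's strand, and positions are on GRCr8.
Hspa5, chr3:38452958-38453006, plus strand: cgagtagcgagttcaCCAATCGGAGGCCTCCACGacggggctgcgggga
Hsp90b1 distal, chr7:23012436-23012484, minus strand: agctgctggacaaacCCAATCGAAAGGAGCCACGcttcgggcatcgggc
Hsp90b1 proximal, chr7:23012332-23012380, minus strand: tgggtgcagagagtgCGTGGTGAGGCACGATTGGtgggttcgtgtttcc
Calr, chr19:40213120-40213168, plus strand: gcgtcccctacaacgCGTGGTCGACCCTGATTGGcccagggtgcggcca
Canx, chr10:35158054-35158102, minus strand: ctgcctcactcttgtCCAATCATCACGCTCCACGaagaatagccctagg
Dnajc3, chr15:102432519-102432567, plus strand: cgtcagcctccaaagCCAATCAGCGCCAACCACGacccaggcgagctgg
Creld2, chr7:121789224-121789272, plus strand: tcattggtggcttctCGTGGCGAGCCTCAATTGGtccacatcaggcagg
Xbp1, chr14:84604543-84604591, plus strand: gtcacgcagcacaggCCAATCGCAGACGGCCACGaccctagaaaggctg
Herpud1, chr19:10614806-10614846, minus strand: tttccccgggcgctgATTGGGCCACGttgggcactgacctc

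The ERSE of Hspa5 ended 24 bases before the start, and that of Xbp1 46 bases before it. Hsp90b1 held a pair, ending 157 and 53 bases before the start. Of the 8 ERSE matches, 3 (Calr, Creld2 and the proximal one of Hsp90b1) lay in the reverse orientation.

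The heat shock element (HSE), the site of HSF1, was searched as TTC, GAA and TTC with 2 bases between each, or as its reverse complement GAA, TTC and GAA with the same gaps. It was found in 5 of 10 heat shock members (Hspa8, Hsph1, Dnaja1, Hspd1 and Hspe1), in 1 of 18 ER members, Serpinh1, and in 0.798% of all windows. The lines below show these elements with their matches in capitals, except for that of Dnaja1, which lay past the gene start. Hspd1 and Hspe1 start 290 bases apart on opposite strands, and their windows share the same element, so it is shown once.
Hspa8 distal, chr8:50080286-50080328, plus strand: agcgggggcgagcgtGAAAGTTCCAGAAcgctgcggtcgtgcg
Hspa8 proximal, chr8:50080444-50080486, plus strand: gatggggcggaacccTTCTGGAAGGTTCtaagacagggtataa
Hsph1, chr12:10427317-10427359, plus strand: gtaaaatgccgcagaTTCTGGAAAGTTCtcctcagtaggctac
Hspe1 and Hspd1, chr9:64084247-64084294, plus strand: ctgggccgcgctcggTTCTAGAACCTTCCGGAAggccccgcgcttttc
Serpinh1, chr1:163062984-163063026, minus strand: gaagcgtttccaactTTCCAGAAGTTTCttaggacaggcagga

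A match is a description of the letters and not evidence of binding. Serpinh1 was the only one of the 18 ER members with a window that held an HSE, and it was 1 of 8 with neither ERSE nor ERSE-II. The short core TGACGTGG, a UPR element, overlapped the distal ERSE-II of Hyou1 and was in 0.595% of all windows.

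**Figure D1:**
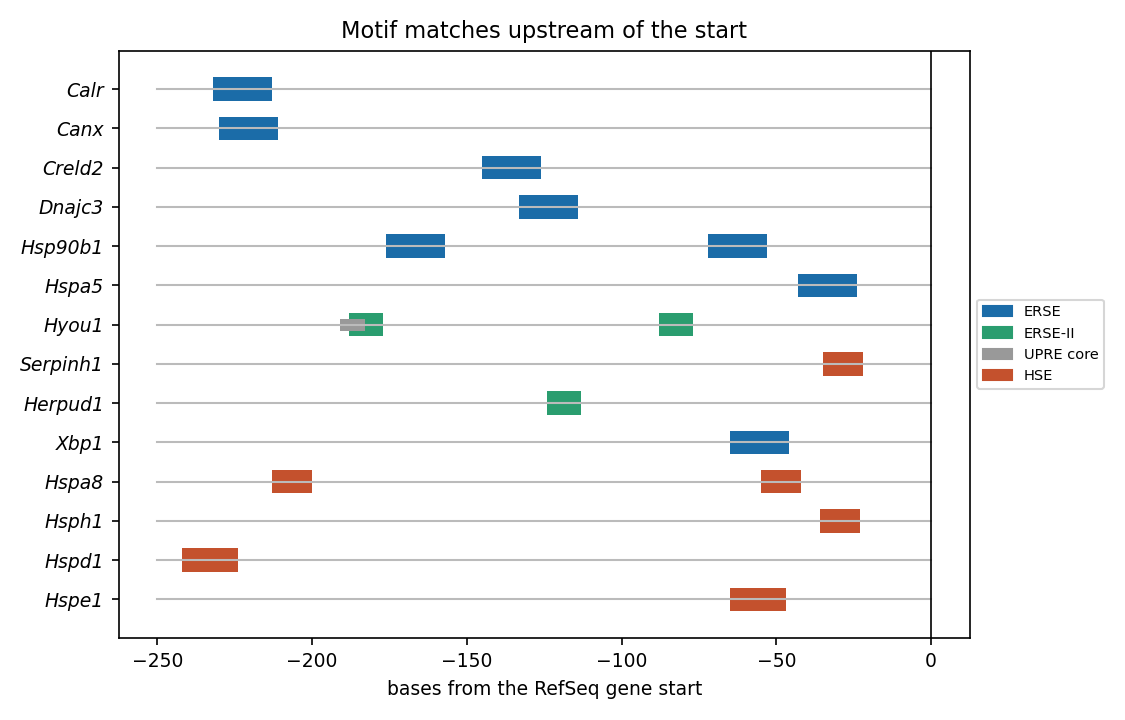
Motif matches in the 250 bases before the RefSeq start of 14 members, in bases from the start (horizontal axis). ERSE and ERSE-II boxes sit on ER genes and HSE boxes on heat shock genes and Serpinh1; the box of Hspd1 is the same DNA as that of Hspe1.

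Called differences were more often toward higher than lower levels in rcMSC, and none reached 2-fold. Of the 34 genes, 17 were higher and 3 lower by the quasi-likelihood test of edgeR (adjusted p under 0.05 over 14836 genes), while 14 did not pass. Over all genes tested, 22.6% were higher and 23.2% lower. Among the 9488 genes at or above the mean level of the lowest member, these shares were 26.8% and 24.5%. The median log2 fold change (rcMSC over rbMSC) was 0.19 for the members and 0.02 for all genes. The libraries of the groups did not overlap in 23 of 34 members, against 57.1% of all genes. In 20 members all rcMSC libraries were above rbMSC (28.3% of all genes), and in 3 all were below (28.8%). Without rcMSC 3, 24 members were higher and 4 lower, where 29.9% and 30.2% of all genes were.

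The ER folding genes were set beside the heat shock genes of the cytosol and mitochondria. Of 15 ER folding genes 7 were higher and 0 lower (median log2 fold change 0.21), and of 11 cytosolic and mitochondrial heat shock genes 6 were higher and 1 lower (median 0.17). The heat shock median joins unlike values, 0.15 for the 8 cytosolic and 0.87 for the 3 mitochondrial genes. Without rcMSC 3 the counts were 11 and 0 for ER folding and 9 and 1 for heat shock. The spread was wider among heat shock genes, from -0.89 to 0.90, than among ER folding genes, from 0.05 to 0.48. It came from Hspb1 at -0.89, Hspe1 at 0.87 and Hspa9 at 0.90. The remaining heat shock genes lay from 0.09 to 0.44, inside the ER folding range. Tested against a change of 1.5-fold, only Hspa9 among the members was higher and only Hspb1 lower, where 5.41% and 8.18% of all genes were.

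**Figure D2:**
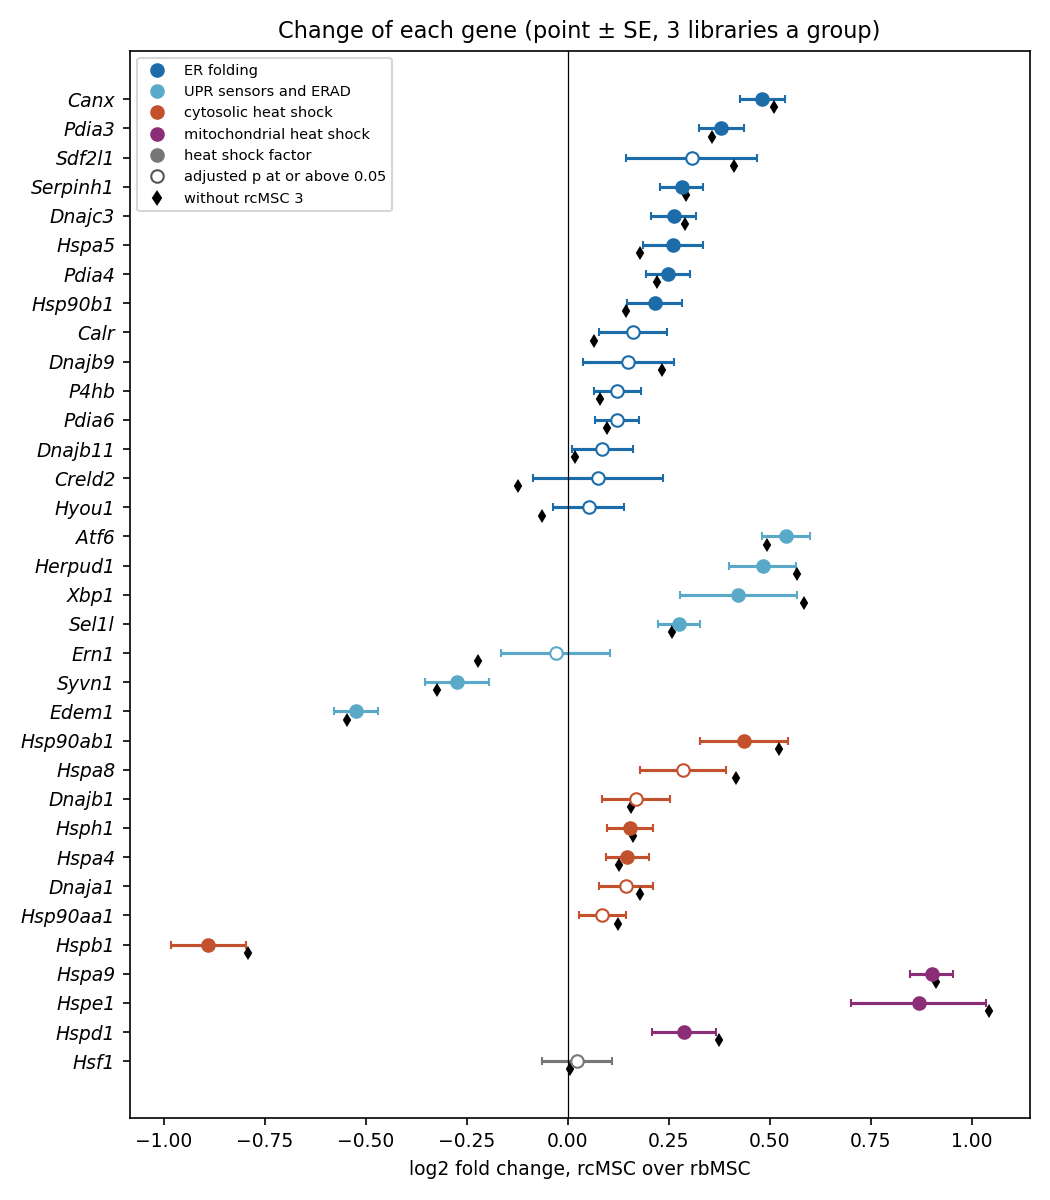
Log2 fold change of rcMSC over rbMSC for each member, with its standard error (bars) from 3 libraries a group, and the value without rcMSC 3 (diamonds). The ER folding genes lie between 0.05 and 0.48, and Hspb1 at -0.89 and Hspa9 at 0.90 mark the ends.

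Hspa5 (BiP), the HSP70 of the ER lumen and the main brake on the stress sensors, lies on chromosome 3 from 18055405 to 18059891 (mRatBN7.2, ENSRNOG00000018294). It stood at 909.5, 886 and 953 CPM in rbMSC 1 to 3 and at 1044, 1028 and 1221 in rcMSC 1 to 3. All rcMSC libraries lay above all rbMSC libraries, and rcMSC 3 was the highest. It rose by a log2 fold change of 0.26 (standard error, SE, 0.07, edgeR adjusted p = 0.0156). The call was lost without rbMSC 1 or rbMSC 2 (edgeR adjusted p = 0.0732 and 0.0836), and the change was 0.18 without rcMSC 3.

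Hsp90b1 (GRP94), the HSP90 of the ER, which folds integrins and Toll-like receptors, behaved in the same way at a higher level. Its values were 2110, 2064 and 2088 CPM in rbMSC and 2275, 2338 and 2653 in rcMSC. The log2 fold change of Hsp90b1 was 0.21 (SE 0.07, edgeR adjusted p = 0.0266), or 0.14 without rcMSC 3. Leaving out rbMSC 1, 2 or 3 gave edgeR adjusted p = 0.0911, 0.109 and 0.0992. Hyou1 (GRP170), an exchange factor for BiP, had 199 and 210.01 CPM in rcMSC 1 and 2 and 256 in rcMSC 3, around an rbMSC mean of 214 ± 5.75 (SD, n = 3). Its log2 fold change of 0.05 did not pass (edgeR adjusted p = 0.656) and was -0.06 without rcMSC 3.

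Calnexin and calreticulin bind newly made glycoproteins through their sugars and hold them for folding, the former as a membrane protein and the latter in the lumen. Canx (ENSRNOG00000003343, chromosome 10, 34625191 to 34656821) had the largest change of the ER folding genes. Its values were 824, 822 and 840.3 CPM in rbMSC and 1186, 1175 and 1110.4 in rcMSC. The groups were far apart for Canx, and here rcMSC 3 was the lowest of its group. Canx rose by 0.48 (SE 0.05, edgeR adjusted p = 6.04e-05), a call kept in all 16 alternatives other than the 1.5-fold test. Calr overlapped between groups, with 2797 to 3110 CPM in rbMSC and 3032 to 3716 in rcMSC. Its log2 fold change was 0.16 (SE 0.08, edgeR adjusted p = 0.142), or 0.06 without rcMSC 3.

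Protein disulfide isomerases make and reshuffle the bonds between cysteines. Pdia3 (ERp57), the partner of calnexin and calreticulin, stood at 866, 879 and 926 CPM in rbMSC and at 1131, 1147 and 1197 in rcMSC. All rcMSC values of Pdia3 were above those of rbMSC, and it rose by 0.38 (SE 0.06, edgeR adjusted p = 0.000373). Pdia4 (ERp72) rose by 0.25 (SE 0.05, edgeR adjusted p = 0.00432), from 305 ± 7.28 to 362 ± 12.9 CPM. Both calls held in the same 16 alternatives. Pdia6, which also damps the sensors, had 251 ± 8.13 and 273 ± 8.24 CPM (log2 fold change 0.12, edgeR adjusted p = 0.0935). P4hb, the founding isomerase and a subunit of collagen prolyl hydroxylase, had 888 ± 18.4 and 967 ± 49.6 CPM (log2 fold change 0.12, edgeR adjusted p = 0.113). Neither pair of groups overlapped, and without rcMSC 3 both passed at smaller changes, 0.10 for Pdia6 and 0.08 for P4hb (edgeR adjusted p = 0.0241 and 0.0258).

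J-domain proteins deliver clients to BiP. Dnajc3 (p58IPK), which also restrains PERK, had 125, 121 and 127 CPM in rbMSC and 154, 150.4 and 143 in rcMSC. It rose by 0.26 (SE 0.06, edgeR adjusted p = 0.00337), in every alternative but the 1.5-fold test. Dnajb11 (ERdj3), the abundant luminal co-chaperone, was at 94.6 ± 6.17 and 100.4 ± 8.35 CPM, with overlapping groups (log2 fold change 0.09, edgeR adjusted p = 0.381). Sdf2l1, which travels with Dnajb11, was among the least expressed, at 6.12 ± 0.82 and 7.58 ± 1.28 CPM (log2 fold change 0.31, edgeR adjusted p = 0.146). Dnajb9 (ERdj4), a classic target of XBP1, had 23.1 to 27.8 CPM in rbMSC and 33.3, 27.7 and 25.3 in rcMSC 1 to 3 (log2 fold change 0.15, edgeR adjusted p = 0.303). Without rcMSC 3, Dnajb9 passed at 0.23 and Sdf2l1 at 0.41 (edgeR adjusted p = 0.0124 and 0.0123). Creld2, a secreted ER stress protein, had 20.98 and 20.5 CPM in rcMSC 1 and 2 but 29.9 in rcMSC 3, with 19.1 to 25.5 in rbMSC. Its log2 fold change was 0.08 (edgeR adjusted p = 0.73), or -0.12 without rcMSC 3.

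Serpinh1 (HSP47), the chaperone of procollagen, combines an ER location with the heat shock element shown above. Its values were 1008, 1026 and 1051 CPM in rbMSC and 1244, 1272 and 1234 in rcMSC, with no overlap and little spread among the rcMSC libraries. Serpinh1 rose by 0.28 (SE 0.05, edgeR adjusted p = 0.00171), or 0.29 without rcMSC 3. Its client Col1a1 had 21001 to 21340.3 CPM in rbMSC and 35572, 34912 and 43167 in rcMSC 1 to 3.

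The sensors and the parts of ERAD went both ways, with 4 of 7 higher and 2 lower, where 22.6% and 23.2% of all genes were. Atf6 (ENSRNOG00000024632, chromosome 13, 82930034 to 83107177), which is cut free from the membrane under stress and binds ERSE, had 206, 218 and 209.8 CPM in rbMSC and 292, 303 and 327 in rcMSC. Every rcMSC library was above every rbMSC library, and Atf6 rose by 0.54 (SE 0.06, edgeR adjusted p = 5.29e-05). Xbp1, the factor whose RNA is spliced by IRE1, had 56.8, 49.3 and 55.3 CPM in rbMSC and 80.6, 80.8 and 54.7 in rcMSC. Libraries rcMSC 1 and 2 were well above rbMSC, and rcMSC 3 lay within its range. The log2 fold change of Xbp1 was 0.42 (SE 0.14, edgeR adjusted p = 0.043), or 0.59 without rcMSC 3. The call was lost when any other library was left out (edgeR adjusted p = 0.0682 to 0.126), with total counts as scaling (0.0676), without the low-count filter (0.108) and with the gene length trend removed (0.0616). Gene counts do not tell spliced from unspliced Xbp1. Ern1, the sensor itself, was lower than rbMSC in rcMSC 1 and 2, at 25.0 and 26.1 CPM against 28.4 to 31.1, and higher in rcMSC 3, at 36.6. Its log2 fold change was -0.03 (edgeR adjusted p = 0.872), and without rcMSC 3 it was -0.22 (edgeR adjusted p = 0.00948).

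Among the 4 ERAD members, 2 rose and 2 fell. Herpud1, an ER membrane protein that gathers the ERAD complex, had 59.0, 64.8 and 61.9 CPM in rbMSC and 91.2, 92.5 and 75.8 in rcMSC. It rose by 0.48 (SE 0.08, edgeR adjusted p = 0.000933). Sel1l, the scaffold of the ubiquitin ligase HRD1, rose by 0.28 (SE 0.05, edgeR adjusted p = 0.00185), from 320.4 ± 6.23 to 388 ± 9.81 CPM. HRD1 itself, encoded by Syvn1, fell by 0.28 on the log2 scale (SE 0.08, edgeR adjusted p = 0.0165), with 35.1, 35.7 and 34.6 CPM in rbMSC and 29.8, 26.4 and 31.0 in rcMSC. The call on Syvn1 was lost without rbMSC 1, rbMSC 2 or rcMSC 2 (edgeR adjusted p = 0.0554, 0.0616 and 0.0731). Edem1 (ENSRNOG00000055365, chromosome 4, 141797701 to 141829717), a mannosidase-like protein that marks glycoproteins for ERAD, had 265, 260.01 and 250.5 CPM in rbMSC and 174, 180.2 and 185 in rcMSC. All rcMSC values of Edem1 lay below those of rbMSC, and it fell by 0.53 on the log2 scale (SE 0.05, edgeR adjusted p = 3.15e-05). The calls on Atf6, Herpud1, Sel1l and Edem1 held in all 16 alternatives other than the 1.5-fold test.

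Of the 8 cytosolic heat shock genes 3 were higher in rcMSC, 1 was lower and 4 did not pass (median log2 fold change 0.15). The shares over all genes were 22.6% higher and 23.2% lower. Hspb1 (HSP27; ENSRNOG00000023546, chromosome 12, 20794028 to 20795743), a small heat shock protein that holds unfolded protein and binds actin filaments, had 104, 116 and 102 CPM in rbMSC and 61.0, 63.2 and 49.8 in rcMSC. Every rcMSC library was below every rbMSC library, and rcMSC 3 was the lowest. Hspb1 fell by 0.89 on the log2 scale (SE 0.09, edgeR adjusted p = 3.6e-05), in all 16 alternatives and against the 1.5-fold change. Without rcMSC 3 the change was -0.79.

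The other cytosolic changes were smaller and rested more on single libraries. Hsp90ab1, the constitutive cytosolic HSP90, had 1364, 1260.1 and 1442 CPM in rbMSC and 1717, 2176 and 1604 in rcMSC. It rose by 0.44 (SE 0.11, edgeR adjusted p = 0.0095), and the call was lost without rbMSC 2 (edgeR adjusted p = 0.0506). Its stress-inducible relative Hsp90aa1 had 511 ± 13.1 and 542 ± 27.7 CPM (log2 fold change 0.09, edgeR adjusted p = 0.258). It passed at 0.12 without rcMSC 3 (edgeR adjusted p = 0.00159). Hspa8 (HSC70; ENSRNOG00000034066, chromosome 8, 41183264 to 41187259), the constitutive HSP70, had 989, 1027 and 1023 CPM in rbMSC. In rcMSC it had 1363, 1339 and 1002 CPM, so that rcMSC 1 and 2 stood apart from rbMSC and rcMSC 3 did not. The log2 fold change of Hspa8 was 0.28 (SE 0.11, edgeR adjusted p = 0.0522), and without rcMSC 3 it was 0.41 (edgeR adjusted p = 8.62e-18). Hspa8 also passed with upper quartile scaling (0.0468), DESeq2 (0.0297) and limma voom with quality weights (8.92e-06). The voom fit gave rcMSC 3 a weight of 0.22, against 1.26 to 1.46 for the other libraries. It is therefore close to leaving rcMSC 3 out, and 59.0% of all genes passed in it.

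The HSP110 proteins Hspa4 and Hsph1 recharge HSP70 with ATP. Hspa4 had 327 ± 8.58 and 362 ± 8.52 CPM (log2 fold change 0.15, edgeR adjusted p = 0.0443). Its relative Hsph1 had 144 ± 3.76 and 160.3 ± 6.78 (log2 fold change 0.15, edgeR adjusted p = 0.0475). Neither pair of groups overlapped, yet both calls sat at the threshold. They were lost without any library other than rcMSC 3 (edgeR adjusted p = 0.077 to 0.175 for Hspa4 and 0.0525 to 0.168 for Hsph1), with RLE scaling (0.051 and 0.0503) and with DESeq2 (0.0573 and 0.0778). Both were also lost with total counts as scaling, without the low-count filter, without robust dispersions and with a replicate block. Apart from the 1.5-fold test, Hspa4 passed in 6 and Hsph1 in 5 of 17 fits. The HSP40 proteins Dnaja1 and Dnajb1, which bring clients to HSP70, had log2 fold changes of 0.14 and 0.17 that did not pass (edgeR adjusted p = 0.104 and 0.126). Dnaja1 was at 61.6 ± 3.62 and 68.1 ± 2.93 CPM and passed at 0.18 without rcMSC 3 (edgeR adjusted p = 0.00461). Dnajb1, a sensitive reporter of HSF1 activity, was at 20.8 to 23.0 CPM in rbMSC and 23.2 to 26.3 in rcMSC. Hsf1 had 16.7 ± 0.79 and 17.0 ± 0.71 CPM, with overlapping groups (log2 fold change 0.02, edgeR adjusted p = 0.856).

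The mitochondrial chaperones rose in 3 of 3 cases (median log2 fold change 0.87), where 22.6% of all genes were higher. In the main fit Hspa9 and Hspe1 had the largest increases of the 34 genes. Hspa9 (mortalin; ENSRNOG00000019525, chromosome 18, 26535798 to 26554292), the HSP70 that pulls proteins into the mitochondrial matrix, had 401, 384 and 409.97 CPM in rbMSC and 748, 749 and 733 in rcMSC. The rcMSC libraries agreed closely with each other and lay far above rbMSC. Hspa9 rose by 0.90 (SE 0.05, edgeR adjusted p = 5.63e-07), 1.87-fold. This call held in every alternative, the 1.5-fold test included.

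Hspd1 (HSP60) and Hspe1 (HSP10) form the folding chamber of the matrix and its lid, and their genes lie head to head on chromosome 9 (56579201 to 56589662 and 56589789 to 56593089). Hspe1 had 22.6, 17.7 and 21.1 CPM in rbMSC and 41.9, 42.2 and 27.7 in rcMSC, and rose by 0.87 (SE 0.17, edgeR adjusted p = 0.00301), or 1.04 without rcMSC 3. With the gene length trend removed, the change of Hspe1 was 0.60. Hspd1 had 215, 219 and 226 CPM in rbMSC and 277, 293 and 235 in rcMSC, and rose by 0.29 (SE 0.08, edgeR adjusted p = 0.013), or 0.37 without rcMSC 3. In both genes rcMSC 3 was nearest to rbMSC. The call on Hspd1 was lost without rbMSC 1, rbMSC 2 or rcMSC 2 (edgeR adjusted p = 0.0659, 0.0582 and 0.0532).

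Within rcMSC, the place of library rcMSC 3 varied from gene to gene. It was the highest rcMSC library in 10 of 15 ER folding genes and 5 of 7 sensors and ERAD genes, and in 1 of 11 heat shock genes, Hspa4, against 39.9% of all genes tested. It was the lowest in 5 of 15 ER folding genes, 2 of 7 sensors and ERAD genes and 8 of 11 heat shock genes, against 41.7% of all genes. The difference between these counts was not tested. The summed CPM of the ER folding genes was 2.53, 2.54 and 2.55 times that of the heat shock genes in rbMSC 1 to 3. This ratio was 2.24 and 2.07 in rcMSC 1 and 2, below rbMSC, and 2.80 in rcMSC 3, above it. By summed CPM, the rcMSC libraries thus lay on both sides of rbMSC in the weight of ER folding genes relative to heat shock genes. Such sums rest largely on a few abundant genes. In rcMSC 2, Calr and Hsp90b1 gave 3032 and 2338 of the 12087 CPM of ER folding genes. Hsp90ab1 and Hspa8 gave 2176 and 1339 of the 5826 CPM of heat shock genes in that library. Among 11 immediate early genes, which answer quickly to stimulation of a cell, 8 were lower and 2 higher in rcMSC. Of all genes tested, 23.2% were lower and 22.6% higher. The immediate early genes summed to 544 to 559.9 CPM in rbMSC and 364, 342 and 302 in rcMSC 1 to 3. The part of these genes, of Col1a1 and of the macrophage markers in the values of rcMSC 3 was not tested.

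**Figure D3:**
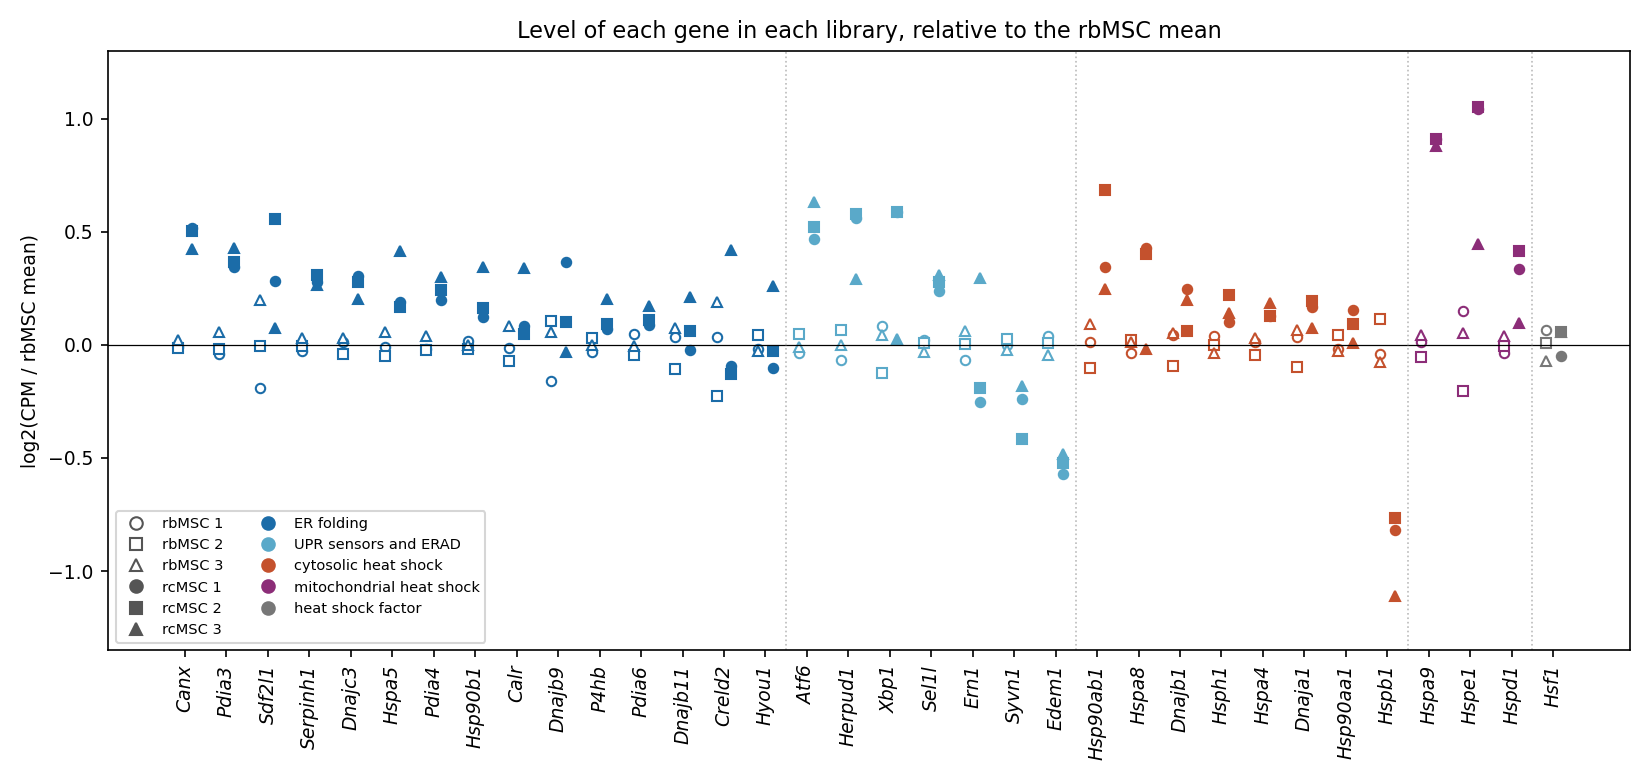
Level of each member in each of the 6 libraries as log2 of CPM over the rbMSC mean (open symbols rbMSC, filled symbols rcMSC, shape by replicate number). Triangles of rcMSC 3 top many ER genes, such as Hspa5 and Hyou1, and are the lowest of the 3 rcMSC symbols for Hspa8, Xbp1, Hspe1 and Hspd1, within the rbMSC range for Hspa8 and Xbp1 and above it for Hspe1 and Hspd1.

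Levels between genes were compared as CPM per kilobase of gene length. Calr was the most abundant of the 34 in both groups, at 1473 ± 79.5 in rbMSC and 1648 ± 188 in rcMSC on this per-length scale. Hsp90b1 (653 and 758), Hsp90ab1 (538 and 727), Serpinh1 (498 and 606), Hspa8 (406 and 495) and Hspa5 (354 and 424) followed in the same order in both groups. In rcMSC, Hsp90b1 and Hsp90ab1 differed by less than their spread (SD 63.4 and 120.2), and Hspa8 and Hspa5 by less than the SD of Hspa8 (80.9, against 41.4 for Hspa5). The least abundant was Hsf1, at 5.11 ± 0.24 and 5.19 ± 0.22. Hspb1 moved from place 12 in rbMSC to place 17 in rcMSC, with per-length levels of 114 and 61.4, and Hspe1 from place 25 to place 21, with 23.0 and 42.0.

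**Figure D4:**
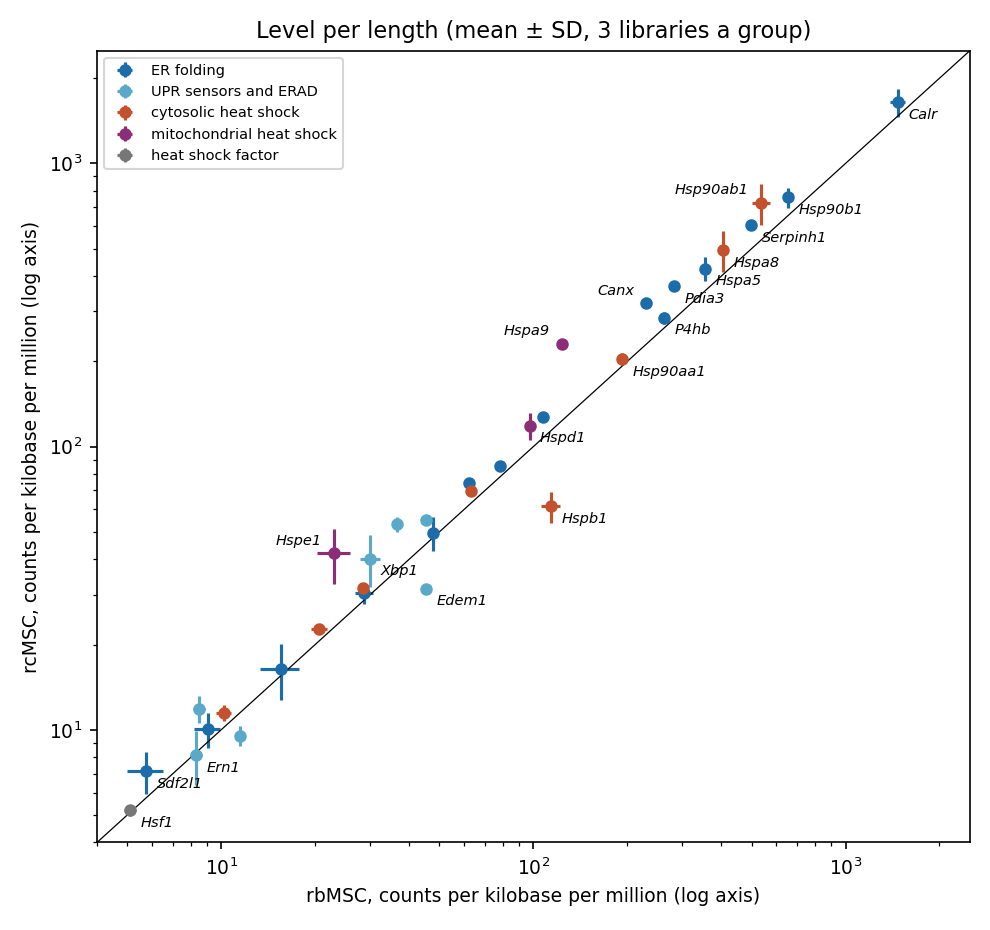
Mean level per length of each member in rbMSC (horizontal) and rcMSC (vertical), both log axes, with SD bars over 3 libraries and the line of equality. Calr is at the top right, Hspa9 and Hspe1 lie above the line and Hspb1 and Edem1 below it.

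Other genes of these pathways were counted from lists written for the comparison. Over all genes tested, 22.6% were higher and 23.2% lower, or 29.9% and 30.2% without rcMSC 3. Of 30 other ER folding enzymes 11 were higher and 3 lower, with a median log2 fold change of 0.11. The prolyl isomerases Fkbp7 and Fkbp9 rose by 0.72 and 0.65 (edgeR adjusted p = 0.000473 and 2.65e-05). The ER oxidase Ero1a, which recharges disulfide isomerases, and Clgn, a calnexin relative of the testis, fell by 0.36 and 2.11 on the log2 scale (edgeR adjusted p = 0.000775 and 2.31e-05). Of 17 genes of collagen folding and modification, 7 were higher and 4 lower (median 0.25), and the share that fell was near that of all genes. The lysyl hydroxylase Plod1 rose by 0.66 and Sparc, a collagen-binding matrix protein, by 0.53 (edgeR adjusted p = 4.5e-06 and 5.06e-05). P3h2, a prolyl hydroxylase, and Plod2, another lysyl hydroxylase, fell by 1.54 and 0.37 on the log2 scale (edgeR adjusted p = 7.62e-05 and 0.0243).

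Of 15 other genes of the unfolded protein response, 7 were higher and 2 lower (median 0.19), or 10 and 4 without rcMSC 3. Sesn2, a stress-induced regulator of growth signalling, and Bax, a cell death effector, rose by 0.84 and 0.60 (edgeR adjusted p = 3.46e-06 and 0.00454). Wfs1, an ER membrane protein, and Tmbim6 (BI-1), an inhibitor of IRE1, fell by 0.32 and 0.25 on the log2 scale (edgeR adjusted p = 0.0252 and 0.0104). Of 25 other ERAD genes 6 were higher and 2 lower (median 0.01), or 8 and 4 without rcMSC 3, and the share that rose was near the 22.6% of all genes. The ERAD lectin Os9 and the ubiquitin-conjugating enzyme Ube2j1 rose by 0.41 and 0.37 (edgeR adjusted p = 0.000673 and 0.00464). Edem3, a relative of Edem1, fell by 0.29 on the log2 scale (edgeR adjusted p = 0.00201).

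Of 26 other cytosolic HSP70, HSP40 and small heat shock genes, 7 were higher and 4 lower (median 0.10). The share that rose was near the 22.6% of all genes. Of the 30 symbols on this list 27 were in the table, and the HSP70 genes Hspa1a and Hspa1b were not, nor was St13. The small heat shock proteins Hspb8 and Cryab rose by 1.36 and 0.62 (edgeR adjusted p = 1.39e-05 and 0.000178), whereas Hspb7, like Hspb1 above, fell from 5.90 ± 0.41 to 0.198 ± 0.11 CPM (edgeR adjusted p = 6.54e-07). Dnajb4, an HSP40, fell by 0.35 on the log2 scale (edgeR adjusted p = 0.00195). Of 18 HSP90 co-chaperones and heat shock factors, 8 were higher and 0 lower (median 0.21), or 9 and 3 without rcMSC 3. Ptges3 (p23) and Ahsa1, which steer the ATP cycle of HSP90, rose by 0.47 and 0.35 (edgeR adjusted p = 0.000121 and 0.00191). Of 13 subunits of the chaperonin CCT and of prefoldin, 6 were higher and 1 lower (median 0.23), or 9 and 1 without rcMSC 3. Pfdn1 and Cct2 rose by 0.97 and 0.38 (edgeR adjusted p = 0.000497 and 0.00311), and Cct3 fell by 0.17 on the log2 scale (edgeR adjusted p = 0.0216).

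Other mitochondrial chaperones and proteases were higher in 9 of 17 and lower in 1 (median 0.34). Lonp1, the main protease of the matrix, rose by 0.94 on the log2 scale (edgeR adjusted p = 7.23e-06), with 111 ± 5.47 CPM in rbMSC and 212 ± 22.7 in rcMSC. Hscb, a J-protein of iron-sulfur cluster assembly that works with Hspa9, rose by 0.60 (edgeR adjusted p = 0.0232), and the protease subunit Spg7 fell by 0.43 on the log2 scale (edgeR adjusted p = 0.0114). Beside the 3 mitochondrial members, this list had the highest median of the 8 pathway lists.

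**Figure D5:**
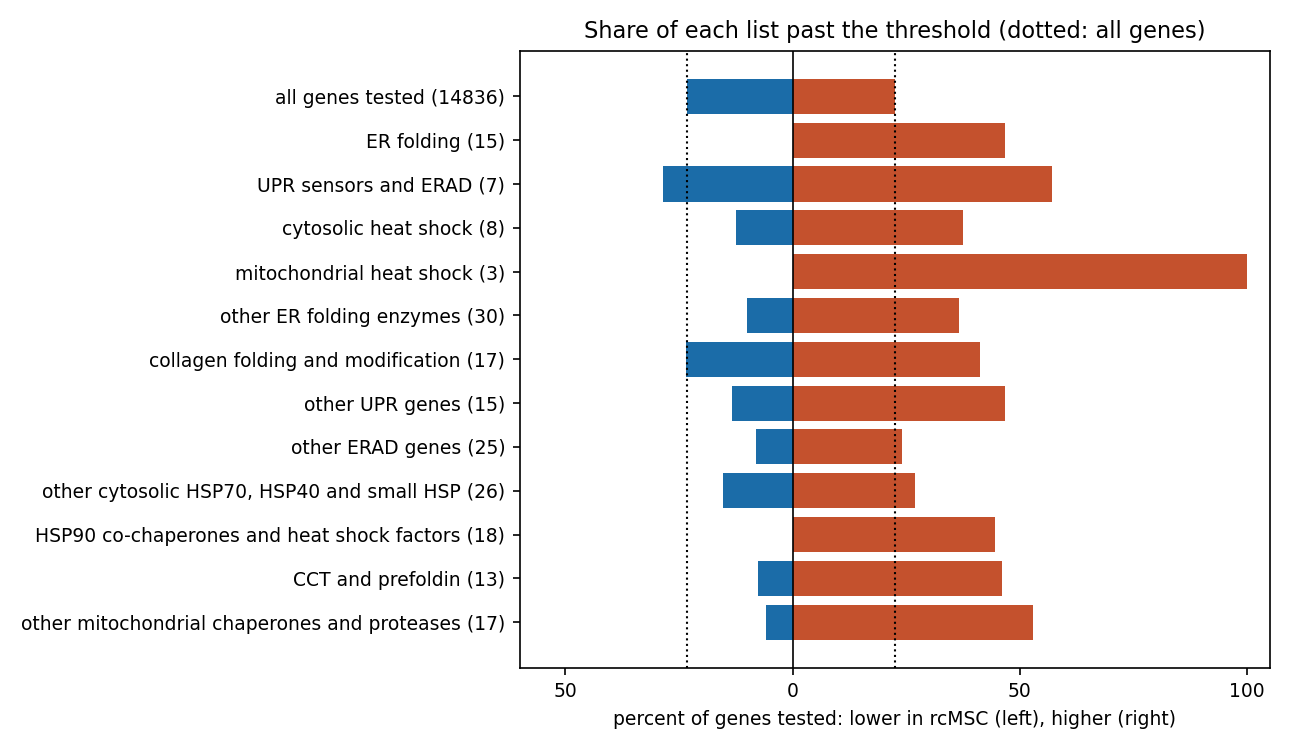
Percent of the genes tested in each list (number tested in brackets) that were higher (right) or lower (left) in rcMSC by edgeR, with dotted lines at the shares of all genes, 22.6% and 23.2%. The mitochondrial members (3 of 3) reach farthest to the right, followed by the sensors and ERAD members (4 of 7), and the other ERAD genes end near the dotted line on the right and short of it on the left.

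Genes that hold an ERSE were also read outside the members. Of 9836 tested genes with a RefSeq window, 16 held an ERSE, and 7 of these 16 were members. Among the other 9 genes 1 was higher and 3 lower in rcMSC, with a median log2 fold change of -0.13. The 9 include the ER genes Derl3 (-0.90, edgeR adjusted p = 0.0867) and Ero1b (-0.13, edgeR adjusted p = 0.321). Derl3 was barely expressed, with 6 to 12 counts per library and means of 0.474 CPM in rbMSC and 0.252 in rcMSC. ER members with ERSE or ERSE-II were higher in 6 of 10 cases (median 0.24), and those with neither in 3 of 8, with 2 lower (median 0.20). HSE was found in 47 tested genes, 6 of them members. Of the other 41, 9 were higher and 12 lower (median -0.08), where 22.6% and 23.2% of all genes were.

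Overlapping genes limit some values, because the strand setting of the counting is not given in the sources used here. Exons of Ell3, on the opposite strand, cover 53.5% of Pdia3, and Ell3 had 94 counts in all libraries together. That low count does not show how reads in the shared bases were treated. Nfkbie, with 6751 counts, covers 37.9% of Hsp90ab1 on the opposite strand, and Dgat1 covers 7.43% of Hsf1. Hspa8, Hsp90ab1, Hspd1, Hspe1 and other heat shock genes have retrocopies in mammalian genomes, and how reads that fit several places were treated is also not given, so their counts are uncertain to that extent.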

How the data were processed

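RNA was measured in 6 libraries, 3 of each group. Per the labels' protocols, the authors sequenced paired reads of 150 nt. Trimming used Trim Galore 0.6.7 as well as Trimmomatic 0.39, mapping to mRatBN7.2 used STAR 2.7.9a, and counting per gene used featureCounts 2.0.1. The submitters' processing notes name DESeq2 1.20.0. The deposited values are raw counts, with no normalization by the authors. The deposited gene length, which equals the union of the listed exons, served for levels per kilobase and for the length trend.

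Counts were tested here with edgeR 4.0.16 in R 4.3.3 (TMM scaling, filterByExpr, robust quasi-likelihood fit). Benjamini-Hochberg adjustment ran over the 14836 genes kept, with a threshold of 0.05. SE is the log2 fold change divided by the root of F, and CPM are given after TMM scaling. One count was worth 0.0364 to 0.0468 CPM. Alternatives used limma 3.58.1, DESeq2 1.42.0, other scalings and filters, a replicate block, removal of a length trend, and leaving out each library. The scripts were tested on simulated data.

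Members, gene lists and motifs were chosen with earlier results of these data known. All members are named. Of each other pathway list, up to 2 genes per direction with the largest log2 fold change are named, if past the threshold and at a mean log2 CPM of 1 or more, and all others were chosen after their values were seen. Fkbp11, which has more than 1 row, was left out. One gene that the naming rule selects is not reported here. Promoter windows come from RefSeq (GRCr8), matched by symbol, with the first listed used for Hyou1, which has 2. Windows on chromosome 18 are not shown as sequence.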

Additional observations from a re-analysis of the deposited data

How the results depend on the processing

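Of the 20 calls on members, 12 held in all 16 alternatives other than the 1.5-fold test, and 8 were lost in at least 1 of them. Another 8 members passed in at least 1 alternative, and all 8 did so without rcMSC 3, where 60.1% of all genes passed. Of these 8, 4 also passed with limma voom, which gave rcMSC 3 little weight. Upper quartile scaling, DESeq2 and removal of the length trend gained 1 each. No called member changed direction. Tested against a 1.5-fold change, 802 genes were higher and 1213 lower, with members at 1 and 1, ER folding at 0 higher, sensors and ERAD at 0 and 0, and heat shock at 1 higher. Removing the gene length trend moved the median log2 fold change to 0.15 for ER folding, 0.33 for sensors and ERAD, 0.20 for cytosolic and 0.60 for mitochondrial heat shock genes. Without 1 library, the members ranged from 10 to 24 higher and 2 to 4 lower, ER folding from 5 to 11 higher, sensors and ERAD from 1 to 3 lower, and heat shock from 2 to 9 higher. The low ends came without rbMSC replicate 2 (10 members, 2 heat shock genes) and the high ends without rcMSC replicate 3. Same-numbered replicates showed no pairing (correlations of deviations -0.03, 0.02 and -0.05), and with the replicate block 14 members were higher and 3 lower, with Hsp90b1, Hspa4 and Hsph1 no longer called (edgeR adjusted p = 0.0635, 0.109 and 0.106). Depth and the spread of 3 libraries a group limit the calls on small changes.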
